A study of Mus musculus with 11 samples.

Results

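The nuclear genes for subunits of respiratory complexes II to V were followed in CA1, a field of the mouse hippocampus needed for memory. They were chosen by name: protein-coding nuclear genes called Sdha to Sdhd, Uqcr, Cyc1, Cycs, Cox4 to Cox8 or Atp5 that had at least 10 counts in at least 5 of the 11 libraries. Of 51 annotated genes with such names 46 met the rule, out of 48709 gene identifiers in the count data. There were 4 members in complex II, 9 in complex III, 15 in complex IV and 17 in complex V, and cytochrome c made the last. Of the other 5 names, Cox6c2 is not protein coding, Cox7b2 and Cox8b reached 10 counts in 3 libraries each, Cox8c had 0 counts in every library, and a second identifier annotated as Atp5o was not analysed here. The members closest to the count minimum were Cox4i2, Cox7a1 and Cox6a2, with lowest counts of 11, 11 and 14.

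CamkdeltaC transgenic mice gave 6 libraries and their littermate controls 5, at 3 months of age and with both sexes used. The transgene encodes a variant of the calcium-activated kinase CaMKII delta, and mice that carry it under a heart promoter are a model of heart failure. The sex, litter and batch of each library are not given in the labels, nor whether each library is a separate animal, so the p-values cover just the spread between these libraries, which may be technical. Each library was made from polyadenylated RNA of frozen, dissected CA1 and read as single reads of 50 bases.

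Complexes II to V sit in the inner mitochondrial membrane. Succinate dehydrogenase (complex II) feeds electrons to ubiquinone, the bc1 complex (III) passes them to cytochrome c while pumping protons, cytochrome c oxidase (IV) gives them to oxygen, and ATP synthase (V) uses the proton gradient to make ATP. Most subunits are encoded in the nucleus and a few in mitochondrial DNA, and neurons depend on this pathway for ion pumping and synaptic transmission.

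Library totals ran from 14263784 counts (control 5) to 36898689 counts, and genes of the mitochondrial chromosome took 3.00% to 3.52% of them in transgenic 1 to 4, 4.15% in transgenic 5, 4.12% in transgenic 6 and 3.86% to 5.04% in controls. This share was below every control in transgenic 1 to 4, and its part in the subunit differences was not tested. It leaves out mt-Co2, mt-Atp6 and mt-Atp8, which had no counts in any library. All 46 members passed the filter on low counts and were tested among 17293 genes with edgeR's quasi-likelihood test. A gene was called at a Benjamini-Hochberg adjusted p under 0.05 over all genes tested. Levels are in CPM (counts scaled to a common library size), differences are log2 fold changes of transgenic against control, and levels of different genes are set side by side only in TPM, a scale that also divides by exon length. Fold changes over all genes increased with transcript GC content, so each call is also given after each library's GC trend had been removed.

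The subunit transcripts were mostly higher in transgenic CA1, by small amounts. Of the 46 members 21 rose and 2, Cycs and Atp5s, fell, where 7.41% of all genes tested rose and 10.5% fell. The median log2 fold change was 0.18 over the members and 0.01 over all genes, and 41 members had a positive difference. Rises were between 1.11-fold and 1.45-fold. The groups did not overlap for 15 members that were higher and 1 that was lower, against 3.04% and 4.73% of all genes.

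With the GC trend removed, 14 members rose and 0 fell by edgeR, against 1.16% and 0.821% of all genes, and the median was 0.15. At an unadjusted p under 0.05 there were 26 higher and 2 lower, and no other tool was run on GC-removed values. The count over all genes at that cutoff was taken only with 1 library left out. There 1271 to 1738 of all genes were higher and 1219 to 1723 lower. Only 9 members rose in both fits: Sdhc, Uqcr10, Uqcrq, Uqcrh, Cox5a, Atp5e, Atp5j2, Atp5l and Atp5o. The 5 that rose only after the removal were Uqcrb, Uqcrc2, Cox7b, Cox7c and Atp5f1, and 12 rose only before it. As counted, single libraries moved the number of members that rose. It came to 12 without transgenic 2, 13 without transgenic 3, 13 without control 1, 10 without control 5, and 14 to 22 without any other library. Over all genes 1282 rose with all libraries. That number became 394, 488, 594 and 404 without transgenic 2, transgenic 3, control 1 and control 5, and 361 to 2132 without any other library. Without transgenic 1, 2, 3 or 4 or control 1, 3, 4 or 5, neither fall of a member passed the test. Over all genes 794 to 1241 fell in these fits, against 1812 with all libraries.

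After GC removal, leaving out transgenic 1, 2, 3 or 4 or control 1, 3, 4 or 5 left 0 members and 0 genes called by edgeR. At an unadjusted p under 0.05 there were still 23 to 29 members higher in these 8 fits (with 1271 to 1615 of all genes higher and 1219 to 1610 lower), and the member median stayed between 0.13 and 0.17. Without transgenic 5, transgenic 6 or control 2 the count was 13, 15 and 14. The members called higher with all libraries and in each of the 11 fits without 1 library, GC trend kept, were Cyc1, Uqcr10, Uqcrq, Cox6a1, Cox7a2, Cox8a, Atp5d, Atp5e, Atp5j2 and Atp5l. Of these 10, 5 were also called after GC removal with all libraries (Uqcr10, Uqcrq, Atp5e, Atp5j2 and Atp5l).

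**Figure D1:**
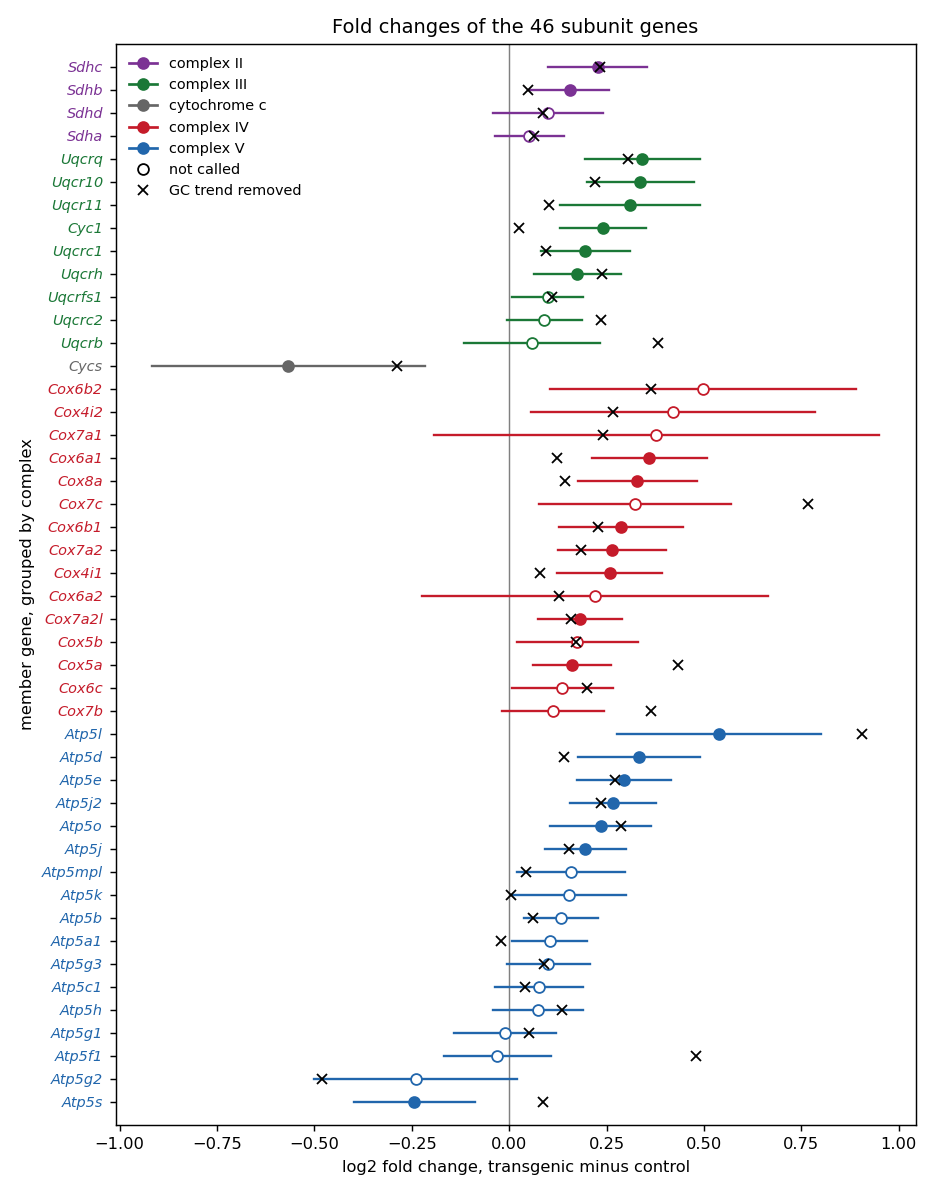
Log2 fold change of each of the 46 members (x axis, transgenic minus control) by gene and complex (y axis). Circles are the values as counted with 95% intervals from edgeR, filled where called and open where not, and crosses are the values with the GC trend removed. Nearly all circles lie right of 0, Cycs (-0.57) and Atp5s (-0.24) are filled and left of it, and the cross of Atp5s (0.09) is on the other side.

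To set the complexes side by side, each member's log2 CPM was expressed as its deviation from its own mean over the 11 libraries and averaged over the complex. In complex IV the controls were at -0.27, -0.00, -0.04, -0.17 and -0.26 (controls 1 to 5), and the transgenic libraries ran from 0.05 to 0.23. In complex III the controls ran from -0.21 to -0.03 and the transgenic libraries from 0.01 to 0.17. In complex V the ranges were -0.14 to -0.01 and 0.02 to 0.09. In these 3 complexes every transgenic library was above every control, and control 2 was the highest control. In complex II the ranges overlapped, since transgenic 1 was at 0.00 and control 2 at 0.02.

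The median fold change was 0.26 in complex IV, 0.20 in III, 0.13 in V and 0.13 in II. With the GC trend removed these medians were 0.20, 0.22, 0.09 and 0.08. The order of III and IV changed with the removal, and differences between complexes were not tested. Together the members took 0.604% ± 0.0295 of the counts in controls (SD, n = 5) and 0.687% ± 0.0201 in transgenic libraries (SD, n = 6). In bulk tissue a change in cell makeup and a change of RNA per cell cannot be told apart.

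**Figure D2:**
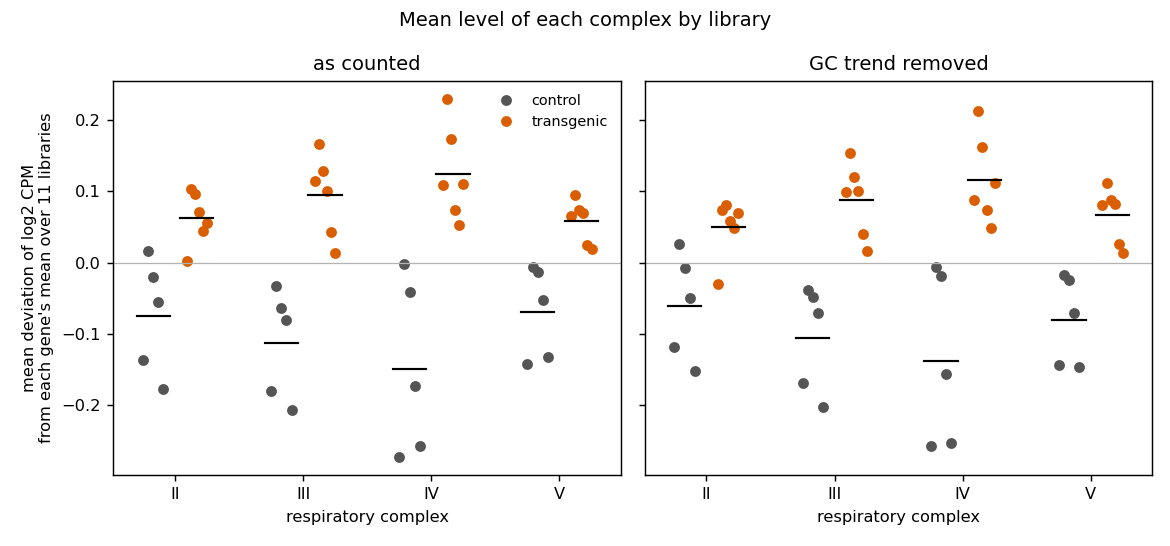
Mean deviation of log2 CPM over the members of complexes II, III, IV and V (x axis) in each library, as counted (left) and with the GC trend removed (right). Each point is 1 library and black bars are group means. Transgenic points lie above all control points for III, IV and V in both panels, and for II transgenic 1 falls among the controls.

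In complex II 2 of 4 subunits rose. Sdhc, a membrane anchor that helps to form the ubiquinone site (ENSMUSG00000058076, chromosome 1, 171127165 to 171150603, mm10), was at 82.6, 87.5, 79.6, 82.4 and 72.3 CPM in controls 1 to 5 and from 89.1 to 105 CPM in transgenic libraries, with a median of 92.9. The highest control was just below the lowest transgenic library. The rise was 0.23 (SE 0.06, adjusted p = 0.0223) and 0.23 with the GC trend removed (adjusted p = 0.0466).

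Sdhb, the iron-sulfur subunit, was at 103, 118, 115, 108 and 108 CPM in controls and from 118 to 128 CPM in transgenic libraries, with a median of 123. Control 2 reached the range of the transgenic group. Its rise was 0.16 (SE 0.05, adjusted p = 0.0381), it was at 0.05 with the GC trend removed (adjusted p = 0.589), and the call held in 3 of the 11 fits without 1 library.

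Sdha, the flavoprotein that oxidises succinate, was at 388, 422, 414, 413 and 404 CPM in controls and from 418 to 427 CPM in transgenic libraries, with a median of 424, and differed by 0.05 (95% interval -0.04 to 0.14). Sdhd, the other anchor, was at 68.4, 79.5, 82.5, 77.6 and 64.2 CPM and from 73.7 to 84.1 CPM, with a median of 80.5, and differed by 0.10 (-0.04 to 0.24). The groups overlapped for both. The complex II count was 1 without transgenic 1, transgenic 4, control 1 or control 3 and 0 without transgenic 2, transgenic 3, control 4 or control 5.

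In complex III 6 of 9 subunits rose, 4 of them among the 5 small subunits. Uqcrq, which binds next to cytochrome b (ENSMUSG00000044894, chromosome 11, 53427922 to 53430831), was at 58.7, 67.9, 67.2, 64.1 and 60.4 CPM in controls and from 71.4 to 89.3 CPM in transgenic libraries, with a median of 82.8. The groups did not overlap, and transgenic 5 and 6 were the closest to the controls. The rise was 0.34 (SE 0.07, adjusted p = 0.0123) and 0.31 with the GC trend removed (adjusted p = 0.0314).

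Uqcr10, a small single-span subunit (ENSMUSG00000059534, chromosome 11, 4701973 to 4704342), was at 51.5, 56.3, 56.1, 52.8 and 47.7 CPM in controls and from 60.7 to 72.0 CPM in transgenic libraries, with a median of 67.7. All transgenic libraries were above all controls. It rose by 0.34 (SE 0.06, adjusted p = 0.0117), and by 0.22 after GC removal (adjusted p = 0.0387).

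Uqcr11 rose by 0.31 and was at 0.10 after GC removal, where it was not called. Uqcrh, the hinge protein that aids docking of cytochrome c, rose by 0.17 and by 0.24 after GC removal. Uqcrb was at 14.9, 16.0, 16.7, 17.2 and 13.3 CPM in controls and from 14.8 to 18.4 CPM in transgenic libraries, with a median of 16.1, and the groups overlapped. This small subunit, not called as counted (0.06, 95% interval -0.12 to 0.23), was called after GC removal at 0.38, and its transcripts share 19.2% of their 50-base windows with other genes.

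The redox subunits with nuclear genes are cytochrome c1 (Cyc1) and the Rieske iron-sulfur protein (Uqcrfs1). Cyc1 was at 136, 159.6, 136, 142 and 138 CPM in controls and from 161 to 176 CPM in transgenic libraries, with a median of 168. Control 2 stood apart from the other controls and was just below the lowest transgenic library. Cyc1 rose by 0.24 (SE 0.05, adjusted p = 0.0138), but was at 0.03 after GC removal (adjusted p = 0.813).

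Uqcrfs1 differed by 0.10 (0.01 to 0.19, adjusted p = 0.115). Of the large core proteins, Uqcrc1 rose by 0.20 and was at 0.10 after GC removal, uncalled, whereas Uqcrc2 was at 0.09 uncalled and rose by 0.24 after it. Exons of Uqcrc2 overlap Pdzd9 on the other strand, and the library kit does not mark strand. The complex III count was 3 without transgenic 1, 2 or 3, control 1 or control 5.

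Cycs, the soluble cytochrome c that carries electrons from complex III to IV and triggers caspase activation when released (ENSMUSG00000063694, chromosome 6, 50562563 to 50566538), went the other way. It was at 8.74, 8.08, 8.77, 8.93 and 8.13 CPM in controls and at 4.34, 5.12, 4.96, 4.27, 7.87 and 7.85 CPM in transgenic libraries 1 to 6. The groups did not overlap, but transgenic 5 and 6 were close to the controls and the other 4 well below. Those 4 had the low mitochondrial share of counts. They also had the steepest slopes of log2 CPM on GC content (0.27, 0.26, 0.18 and 0.10 per 10 percentage points). The slopes of transgenic 5 and 6 were 0.02 and -0.06, and the GC content of Cycs is 40.8%. The part of the mitochondrial share in the fall was not tested, nor that of GC content beyond the removal below. The fall was by 0.57 (SE 0.16, adjusted p = 0.0325), with 28.5% of its 50-base windows shared with 76 other genes. With the GC trend removed it was at -0.29 (adjusted p = 0.229), and without any 1 of transgenic 1 to 4 or control 1, 3, 4 or 5 the call was lost at log2 fold changes that stayed below 0.

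**Figure D3:**
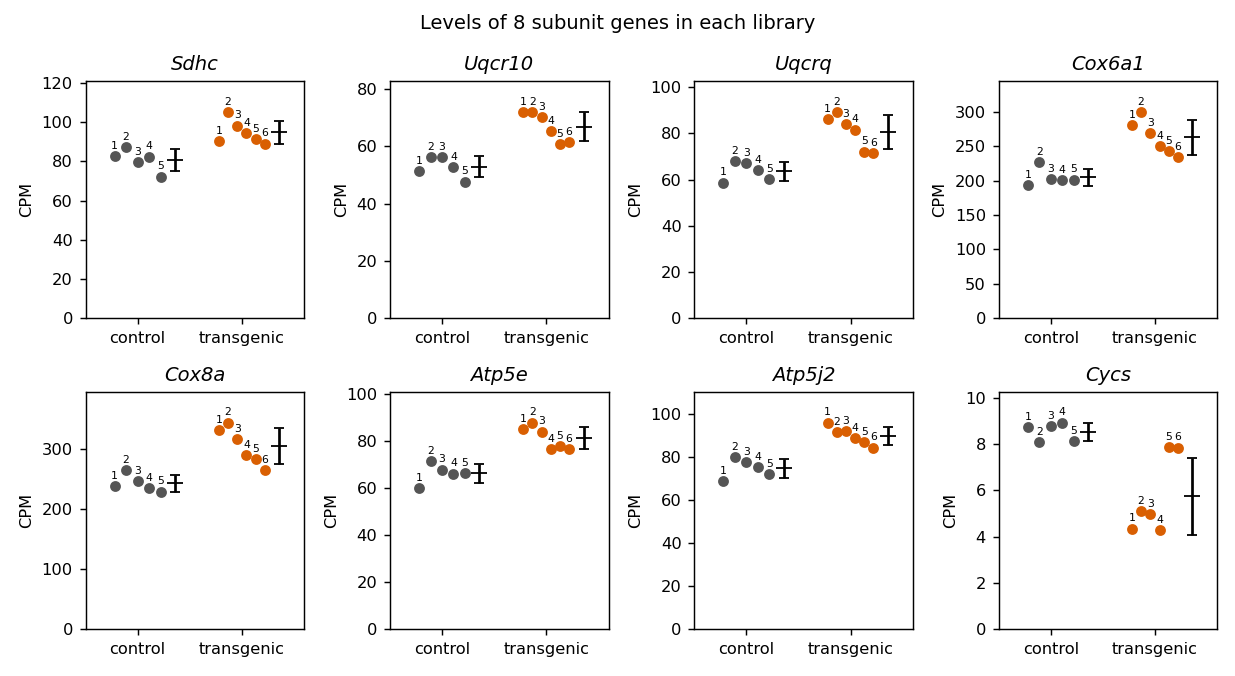
Level in CPM (y axis, from 0) of 8 members in each library, with the replicate number at each point. Bars to the right of the points are the mean and SD of each group (5 control, 6 transgenic). In the panels from Sdhc to Atp5j2 all transgenic points lie above the control points, and for Cycs transgenic 5 and 6 (7.87 and 7.85) lie just below the controls.

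In complex IV 7 of 15 members rose, namely 6 of the 10 main forms and Cox7a2l. Cox6a1, the main brain form of subunit VIa (ENSMUSG00000041697, chromosome 5, 115345642 to 115348981), was at 194, 226, 202, 200.1 and 201 CPM in controls and from 234 to 299.6 CPM in transgenic libraries, with a median of 259.8. Control 2 stood above the other controls and below every transgenic library. It rose by 0.36 (SE 0.07, adjusted p = 0.0118) and was at 0.12 after GC removal (adjusted p = 0.171).

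Cox8a (ENSMUSG00000035885, chromosome 19, 7215153 to 7217616), a small single-span subunit, was at 239, 264.6, 247, 235 and 229 CPM in controls and from 264.7 to 344 CPM in transgenic libraries, with a median of 304. Control 2 and transgenic 6 were almost level, so the groups barely parted. It rose by 0.33 (SE 0.07, adjusted p = 0.0135) and was at 0.14 after GC removal (adjusted p = 0.112).

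Cox7a2, another main form, was at 85.6, 98.2, 100.5, 92.7 and 79.5 CPM in controls and from 103 to 120.0 CPM in transgenic libraries, with a median of 108. Every transgenic library was above the highest control. It rose by 0.26 (SE 0.06, adjusted p = 0.0189) and was at 0.18 after GC removal (adjusted p = 0.107).

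Cox4i1, the regulatory subunit that binds ATP, was at 290.4, 330.1, 306, 315 and 287 CPM in controls and from 329.8 to 411 CPM in transgenic libraries, with a median of 368. Control 2 was level with the lowest transgenic library. Cox4i1 rose by 0.26 (SE 0.06, adjusted p = 0.0188). It was at 0.08 after GC removal, 14.7% of its windows are shared with 1 other gene, and its exons overlap Emc8 on the other strand.

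Cox6b1, which links the monomers of the enzyme, was at 135, 149, 154, 145 and 126 CPM in controls and from 153 to 196 CPM in transgenic libraries. Its median there was 174, above every control, and only the lowest transgenic library overlapped. Cox6b1 rose by 0.29, and Cox5a, which binds a thyroid hormone metabolite, by 0.16. After GC removal Cox5a was called at 0.43 and Cox6b1 was not, at 0.23. Cox7a2l, a factor that joins complexes III and IV into supercomplexes, was at 38.0 to 42.3 CPM in controls and 43.2 to 49.5 CPM in transgenic libraries. It rose by 0.18 with no overlap between groups, and was at 0.16 after GC removal (adjusted p = 0.0822).

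The main forms that did not pass were Cox5b (0.18), Cox6c (0.14), Cox7b (0.11) and Cox7c (0.32). Cox7b was at 80.4, 96.5, 103.4, 94.0 and 85.8 CPM in controls and from 95.7 to 102.6 CPM in transgenic libraries, so its groups overlapped. Cox7b and Cox7c were called only after GC removal, at 0.36 and 0.77. Cox7c had 4.29 ± 0.353 CPM in controls (SD, n = 5) and shares 27.9% of its windows with 3 other genes. The complex IV count was 4 without transgenic 2 or control 1 and 3 without control 5, and after GC removal it was 3 with all libraries.

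The alternative forms Cox4i2, Cox6a2, Cox6b2 and Cox7a1, known from lung, heart, skeletal muscle or testis, were at 3.97 to 8.13 TPM in controls, against 15.7 to 1619 TPM for the main forms. None was called by edgeR, and 2 had an unadjusted edgeR p under 0.05. DESeq2 did not call Cox6b2 or Cox7a1. It gave Cox4i2 and Cox6a2 no adjusted p, so it could not call them. Cox6b2 was called by voom (0.49, adjusted p = 0.0427) and by edgeR with 1 surrogate variable (0.44, adjusted p = 0.0451).

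Cox6b2 was at 1.31, 1.82, 2.12, 1.45 and 1.47 CPM in controls and from 1.65 to 3.28 CPM in transgenic libraries, with a median of 2.25. Cox4i2 was at 0.781, 0.851, 0.733, 0.645 and 0.771 CPM and from 0.691 to 1.16 CPM, with a median of 1.06. For Cox6b2 4 of 6 transgenic libraries lay above every control, and for Cox4i2 5 of 6. As counted, Cox6b2 (0.50, 95% interval 0.11 to 0.89, adjusted p = 0.0725) and Cox4i2 (0.42, 0.06 to 0.79, adjusted p = 0.0975) had intervals that stayed above 0, before adjustment. Cox7a1 (0.38) and Cox6a2 (0.22) had intervals that reached below 0. The groups overlapped for all 4 genes.

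In complex V 6 of 17 members rose and 1 fell. The catalytic head did not pass with edgeR, though DESeq2 and voom called both genes higher: Atp5a1 differed by 0.10 (95% interval 0.01 to 0.20, adjusted p = 0.119) and Atp5b by 0.13 (0.04 to 0.23, adjusted p = 0.0528). After GC removal Atp5a1 was at -0.02 (adjusted p = 0.836), on the other side of 0, and Atp5b at 0.06 (adjusted p = 0.389). Atp5b was at 1062, 1165, 1127, 1084 and 1076 CPM in controls and from 1175 to 1235 CPM in transgenic libraries. Its groups did not overlap, although its difference missed the threshold.

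Of the 3 central stalk subunits, Atp5d and Atp5e rose and Atp5c1 (0.08) did not pass. Atp5e, the epsilon subunit (ENSMUSG00000016252, chromosome 2, 174461072 to 174464105), was at 60.1, 71.4, 67.9, 66.2 and 66.3 CPM in controls and from 76.7 to 87.9 CPM in transgenic libraries, with a median of 81.0. The groups were apart. It rose by 0.29 (SE 0.06, adjusted p = 0.0117), and by 0.27 after GC removal (adjusted p = 0.0314).

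Atp5d, the delta subunit, was at 140.0, 162, 138, 132 and 141 CPM in controls and from 157 to 197 CPM in transgenic libraries, with a median of 182. Control 2 lay within the transgenic range. It rose by 0.33 (SE 0.07, adjusted p = 0.0143) and was at 0.14 after GC removal (adjusted p = 0.0942), and its exons overlap Cbarp on the other strand.

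Of the 4 peripheral stalk subunits, Atp5o, which fastens the stalk to the head, rose by 0.24 and by 0.29 after GC removal. It shares 34.9% of its windows with 1 other gene identifier. Its exons overlap the second identifier annotated as Atp5o on the same strand, and D430001F17Rik and Gm15976 on the other strand. Atp5j rose by 0.20 and was at 0.15 uncalled after the removal. Its exons overlap those of Gabpa on the other strand, a gene that fell. Atp5h (0.07) and Atp5f1 (-0.03) did not pass, but Atp5f1, the member with the lowest GC content at 37.0%, was called at 0.48 after GC removal.

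Of the membrane accessory subunits, Atp5j2 (ENSMUSG00000038690, chromosome 5, 145183698 to 145192062), subunit f, was at 68.6, 79.8, 77.5, 75.1 and 72.0 CPM in controls and from 84.3 to 95.9 CPM in transgenic libraries, with a median of 90.02. No transgenic library fell within the control range. It rose by 0.27 (SE 0.05, adjusted p = 0.0119) and by 0.24 after GC removal (adjusted p = 0.0314). Atp5l, subunit g, which takes part in joining ATP synthase dimers, was at 3.40, 3.83, 3.75, 2.61 and 3.65 CPM in controls and from 4.39 to 5.76 CPM in transgenic libraries.

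Atp5l had the largest rise among the members, 0.54 (SE 0.12, adjusted p = 0.0155), and was at 0.90 after GC removal. It was the lowest of them in TPM, its 50-base windows are shared in part (7.49%) with 640 other genes, and its exons overlap Gm30934 on the other strand. Atp5k (0.15) and Atp5mpl (0.16) did not pass.

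Atp5s, coupling factor B (ENSMUSG00000054894, chromosome 12, 69724950 to 69744660), was at 18.9, 17.4, 19.2, 19.3 and 19.1 CPM in controls and from 13.8 to 18.2 CPM in transgenic libraries, with a median of 15.9. Control 2 was below transgenic 5 and the other controls were above every transgenic library. It fell by 0.24 (SE 0.07, adjusted p = 0.0358). With the GC trend removed it was at 0.09 (adjusted p = 0.516), on the other side of 0, and the call was lost without any 1 of transgenic 1 to 4 or control 1, 3, 4 or 5.

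The c ring, whose rotation drives the enzyme, has 3 genes that encode the same mature peptide. Atp5g3 was the main source with 409 ± 21.6 TPM in controls (SD, n = 5), Atp5g1 had 16.8 ± 0.682 TPM and Atp5g2 5.93 ± 0.4997 TPM. By edgeR, DESeq2 and voom 0 of the 3 were called, and 0 had an unadjusted edgeR p under 0.05. Atp5g3 was at 0.10, Atp5g2 at -0.24 and Atp5g1 at -0.01, a value whose sign changed with upper-quartile scaling and the GC removal. After GC removal Atp5g2 was at -0.48 (95% interval -0.75 to -0.21, unadjusted p = 0.00228, adjusted p = 0.0702), with every transgenic library below every control, and the other two were uncalled.

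Atp5g2 was at 2.28, 2.67, 2.25, 2.68 and 2.17 CPM in controls and from 1.69 to 2.31 CPM in transgenic libraries, with a median of 2.12, as counted. Atp5g3 was at 217, 234, 207, 218 and 203 CPM in controls and from 221 to 242 CPM in transgenic libraries, with a median of 234. Atp5g1 was at 19.8, 20.1, 20.6, 21.4 and 18.02 CPM and from 18.3 to 20.9 CPM, with a median of 20.2. The groups overlapped for all 3 genes. Atp5g1 and Atp5g2 share 11.6% and 14.8% of their windows with other genes.

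Ratios of alternative to main forms were compared within libraries by a two-sided exact permutation test over all assignments of the group labels, for 7 pairs, with Benjamini-Hochberg adjustment over the 7. Controls had a mean log2 ratio of Atp5g2 to Atp5g3 of -6.45 ± 0.0861 (SD, n = 5), and transgenic libraries -6.78 ± 0.188 (SD, n = 6). The difference of -0.33 gave an exact permutation p of 0.00433 and 0.0303 adjusted, near the smallest p of 0.00217 that the design allows. The difference was -0.56 once the GC trend was removed (adjusted exact permutation p = 0.0152), and -0.57 with both trends removed. Leaving out any 1 library gave -0.38 to -0.28. Without a transgenic library the adjusted exact permutation p was 0.0556 in all 6 cases, the smallest that adjustment over 7 pairs gives there for a pair whose p no other pair matches, so those cases say nothing on stability. Without a control library, where 0.0333 is the smallest by the same reckoning, it was 0.0667 (without control 3) to 0.133.

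The other 6 ratios missed the threshold, with adjusted exact permutation p from 0.157 to 0.450. Cox7a2l to Cox7a2 differed by -0.09 and Atp5g1 to Atp5g3 by -0.11. Cox4i2 to Cox4i1, Cox6b2 to Cox6b1 and Cox7a1 to Cox7a2 differed by 0.12, 0.19 and 0.20, and Cox6a2 to Cox6a1 by -0.18. The ratios of Cox7b2 to Cox7b and Cox8b to Cox8a were not tested because 1 gene of each pair missed the count minimum.

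Levels per exon length in controls ran from 2.21 TPM for Atp5l to 1619 TPM for Cox8a. The highest after Cox8a were Cox6a1 (1203 TPM), Atp5a1 (1095 TPM), Atp5b (1074 TPM), Cox6b1 (826 TPM) and Cox4i1 (813 TPM). Atp5a1 and Atp5b differed in TPM by less than their SD of 37.9 and 42.7, and so did Cox6b1 and Cox4i1, with SD of 52.8 and 37.3. Complex II members ran from 103 to 408 TPM and complex III members from 73.5 to 373.5 TPM. Of the lowest in TPM, Atp5l, Atp5g2, Cycs, Cox7c and Cox6a2 share windows with other genes, and Cox4i2, Cox6b2 and Cox7a1 share none. Over all members 24 share windows, among them Cox6a1 and Cox4i1.

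**Figure D4:**
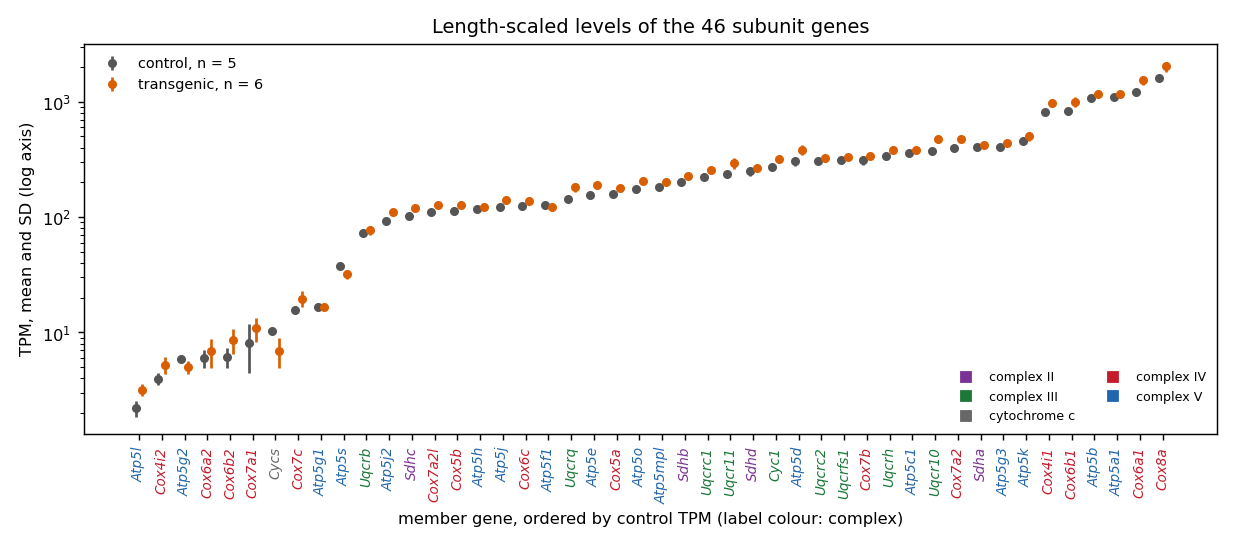
Level of each member in TPM (y axis, log scale), in order of the control mean, for 5 control and 6 transgenic libraries. Points are means and bars are SD. The members run from Atp5l at 2.21 TPM to Cox8a at 1619 TPM in controls, and the transgenic point is above the control point for most of them.

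GC content went with the calls among the members as it did over all genes. The slope of log2 CPM deviation on GC content, per 10 percentage points, was 0.27, 0.26, 0.18, 0.10, 0.02 and -0.06 in transgenic libraries 1 to 6 and -0.12, -0.06, -0.20, -0.22 and -0.16 in controls 1 to 5. Transgenic 6 and control 2 were nearly level, and the other transgenic slopes were above those of all controls. Across the 46 members the rank correlation of fold change with GC content was 0.454, and across all genes 0.684, a description over genes that share the same libraries.

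Of the 9 members with less than 45% GC 2 rose and 2 fell, with a median of 0.09. In the same GC class 0.246% of all genes rose and their median was -0.25. The share of all genes that fell within this class was not computed, and over all classes it was 10.5%. Of the 26 members with 45% to 55% GC 13 rose, with a median of 0.18, where 5.44% of all genes rose at a median of 0.03. Of the 11 members with at least 55% GC 6 rose, with a median of 0.33, where 20.6% of all genes rose at a median of 0.18. In each class the member median was above that of all genes.

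After the removal the calls moved to the members of lower GC content: 7 of 9, 7 of 26 and 0 of 11 were called higher in the 3 classes, with medians of 0.38, 0.15 and 0.12. All genes of the same classes had medians of -0.0096, -0.0019 and 0.002 after the removal. Over all classes 1.16% of genes were then called higher, and the share within each class was not computed. The rank correlation over members was then -0.436, so the removal reversed the trend over the members. Fold change also fell with exon length over the members as counted (rank correlation -0.403). With both GC and length trends removed 11 members rose, 0 fell and the median was 0.11. The part of GC content and length in the result was not tested beyond these removals.

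**Figure D5:**
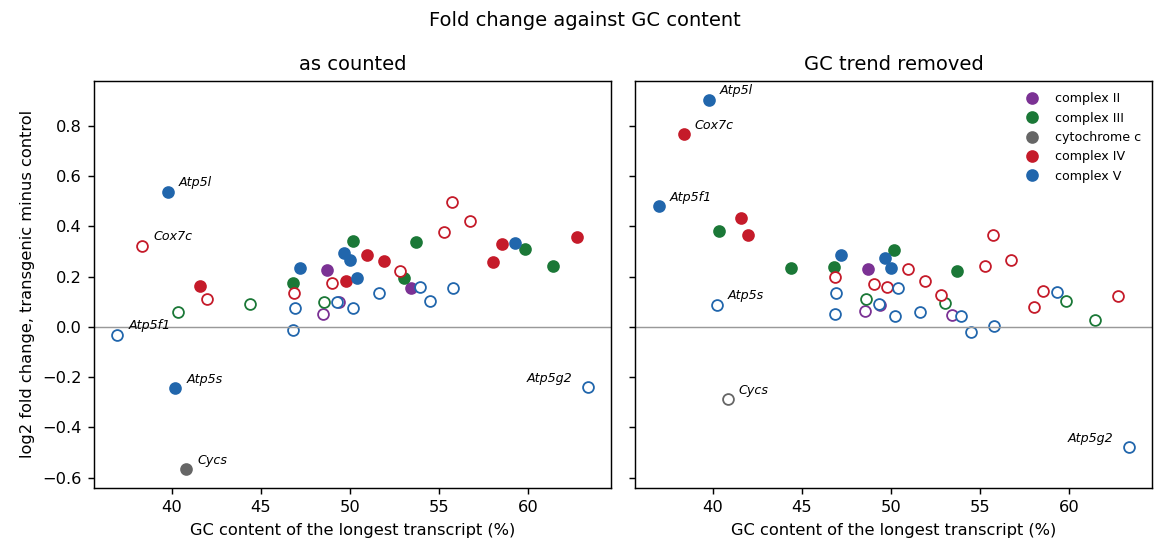
Log2 fold change of each member (y axis) against the GC content of its longest transcript in percent (x axis), as counted (left) and with the GC trend removed (right). Filled points were called and open points were not. On the left 2 filled points above 0 lie under 45% GC, 13 at 45% to 55% and 6 at 55% or more. On the right these counts are 7, 7 and 0.

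Nuclear respiratory factor 1 (Nrf1), GA-binding protein alpha (Gabpa) and Yy1 are transcription factors known to bind promoters of respiratory genes, and Ppargc1a is a coactivator of them. RefSeq (GRCm38.p6) gave a promoter for 33 of the 46 members, and the 250 bases before the transcript start were searched on both strands. The NRF1 letters GCGCANGC were in 11 of 33 members (33.3%), in 9.38% of 27025 genes of any type and in 12.4% of 17492 protein-coding genes. The GABPA letters CCGGAAGT were in 3 (9.09%, against 3.23% of all genes and 4.26% of protein-coding genes) and the YY1 letters AAGATGGC in 1 (3.03%, against 1.83% and 1.77%). The 3 motifs do not contain each other.

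Shown are 4 promoters: Sdhd, Cycs and Cox6a1 hold the NRF1 letters and were uncalled, lower and higher, and Uqcrh, which was higher, holds the GABPA letters. They lie at chr9:50603850-50604099, chr6:50566570-50566819, chr5:115348959-115349208 and chr4:116075071-116075320, all on the minus strand, and capitals mark the matches (in Cox6a1 the first 2 overlap).
Sdhd: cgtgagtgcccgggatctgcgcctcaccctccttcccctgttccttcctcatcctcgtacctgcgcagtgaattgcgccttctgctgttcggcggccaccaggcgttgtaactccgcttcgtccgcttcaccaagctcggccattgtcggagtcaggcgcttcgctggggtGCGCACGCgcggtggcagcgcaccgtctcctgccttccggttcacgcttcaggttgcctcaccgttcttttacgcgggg
Cycs: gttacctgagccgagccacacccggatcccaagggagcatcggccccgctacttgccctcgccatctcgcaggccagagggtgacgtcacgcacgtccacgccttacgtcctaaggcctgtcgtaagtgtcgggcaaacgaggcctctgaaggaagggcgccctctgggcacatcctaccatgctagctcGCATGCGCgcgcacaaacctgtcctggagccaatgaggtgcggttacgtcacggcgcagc
Cox6a1: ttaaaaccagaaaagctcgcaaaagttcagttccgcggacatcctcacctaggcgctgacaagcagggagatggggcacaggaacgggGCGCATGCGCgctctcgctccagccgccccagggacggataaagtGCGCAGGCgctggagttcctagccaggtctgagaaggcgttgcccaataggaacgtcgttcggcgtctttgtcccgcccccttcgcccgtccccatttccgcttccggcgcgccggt
Uqcrh: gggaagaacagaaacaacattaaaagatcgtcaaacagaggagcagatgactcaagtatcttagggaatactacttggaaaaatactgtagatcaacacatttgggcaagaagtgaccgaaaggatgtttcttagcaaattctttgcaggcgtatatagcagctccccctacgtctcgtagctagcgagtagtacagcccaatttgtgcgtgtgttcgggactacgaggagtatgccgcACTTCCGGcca
Of the 11 members with the NRF1 letters 4 rose and 1 fell, and of the 22 without them 13 rose. All 3 complex II promoters found, Cycs and 6 of 13 complex V promoters held the letters, against 1 of 11 in complex IV and 0 of 5 in complex III. A match is a description of the letters only.

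Other genes of the pathway were described from lists. By edgeR 7.41% of all genes tested rose and 10.5% fell as counted, and 1.16% and 0.821% after GC removal. Of 38 complex I subunits tested 22 rose and 0 fell (27 and 0 at an unadjusted p under 0.05, and 22 and 0 by DESeq2), with a median of 0.22 and 10 called higher after GC removal. Ndufs7, which holds an iron-sulfur cluster near the ubiquinone site, rose by 0.36, and Ndufa7, an accessory subunit, by 0.33. Of 33 assembly factors of complexes II to V tested 5 rose (Uqcc2, Uqcc3, Surf1, Cox14 and Coa3) and 2 fell, with a median of 0.10. Sdhaf3, which helps to mature Sdhb, fell by 0.46, Ttc19, which clears fragments of the Rieske protein from complex III, fell by 0.21, and Uqcc2, needed to make cytochrome b, rose by 0.26. After GC removal Uqcc1 was the only assembly factor called.

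Among the mitochondrially encoded subunits of complexes III to V, mt-Cytb and mt-Co1 were tested and neither passed by edgeR, DESeq2 or voom or at an unadjusted p under 0.05, at -0.15 (adjusted p = 0.189) and -0.13 (adjusted p = 0.234). After GC removal they were at 0.25 (adjusted p = 0.109) and 0.22 (adjusted p = 0.0776), uncalled but both higher at an unadjusted p under 0.05. The counts of mt-Co2, mt-Atp6 and mt-Atp8 were 0 in every library and that of mt-Co3 was 1 in control 1 and 0 elsewhere, and these genes gave no value. Of 7 genes for the ATP synthase inhibitor, the nucleotide and phosphate carriers and the outer membrane channels 0 were called by edgeR as counted, with a median of 0.04, and 1 by DESeq2, by voom and at an unadjusted p under 0.05. Atpif1, the inhibitor, was at 0.19 (adjusted p = 0.0591), and the channel Vdac3 was at 0.07 and was called at 0.47 after GC removal.

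Of 11 transcriptional regulators 0 rose and 3 fell by edgeR, where 1 and 4 did at an unadjusted p under 0.05 and 0 and 4 by DESeq2. Gabpa fell by 0.46, Ppargc1a by 0.34 and Yy1 by 0.14. Gabpa was at 29.9, 26.5, 31.5, 37.7 and 30.4 CPM in controls and from 20.2 to 26.7 CPM in transgenic libraries, and transgenic 6 was level with control 2. Ppargc1a was at 78.2, 77.5, 82.8, 83.5 and 88.9 CPM in controls and from 55.3 to 79.8 CPM in transgenic libraries, with transgenic 5 and 6 the highest of their group. After GC removal Yy1 was called at -0.19, and Gabpa (-0.19) and Ppargc1a (-0.09) were not. Nrf1 itself differed by 0.07.

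The CA1 pyramidal neuron markers Wfs1, Fibcd1, Pou3f1, Mpped1 and Dkk3 were present in every library, at a summed 1388 to 1674 CPM in controls and 1484 to 1926 CPM in transgenic libraries. All 5 had a positive difference (0.13 to 0.42). By edgeR 0 of them were called and 3 were higher at an unadjusted p under 0.05, DESeq2 called Wfs1 higher, and voom called Wfs1 and Mpped1 higher. After GC removal 4 were positive and 0 were called by edgeR, with 0 at an unadjusted p under 0.05. Genes listed as markers of dentate granule neurons summed to 163 to 343 CPM in controls and 110 to 220 CPM in transgenic libraries, and 1 of 5, Calb1, fell. Calb1 alone was at 106 to 200 CPM in controls and 75.6 to 124 CPM in transgenic libraries. Prox1 (-0.45), Dsp (-0.60) and Trpc6 (-0.30) were below 0 and C1ql2 (0.09) above, all uncalled by edgeR. Of the interneuron, astrocyte and microglia markers 1 in each list rose by edgeR (Slc32a1, Aldh1l1 and Csf1r). The uncalled markers of these lists went both ways. Gad1, Gad2, Vip, Aqp4, Gja1, Slc1a3 and P2ry12 were below 0 (-0.24 to -0.02). Pvalb, Sst, Gfap, Cx3cr1, Tmem119 and Aif1 were above 0 (0.12 to 0.37). For oligodendrocytes 0 of 5 markers were called by edgeR or DESeq2 (1 at an unadjusted p under 0.05), at 2733 to 4669 and 3279 to 5693 CPM. Of 8 heart and skeletal muscle markers 3 were high enough to test and 0 were called by edgeR or DESeq2 or at an unadjusted p under 0.05, with Myl7, Nppa and Ckm at 0 in some libraries of both groups. The part of cell makeup in the subunit differences was not tested.

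In the authors' deposited table of genes higher in transgenic mice there were 23 members, which held the 21 that rose here as well as Atp5a1 (0.10, their adjusted p 0.0376) and Atp5b (0.13, their adjusted p 0.00567). The authors' deposited table of lower genes held 2 members, Cycs (-0.57) and Atp5s (-0.24). These tables had 1780 entries for higher and 2014 for lower genes. They were deposited with the same libraries, so the overlap is no independent evidence.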

How the data were processed

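RNA-seq libraries of mouse CA1 (6 transgenic, 5 control) were used. Whole-number read counts per gene and library were deposited by the authors, on the build mm10. The submitters' processing notes name STAR 2.5.2b, Subread 1.5.1, featureCounts and FastQC 0.11.5, with no settings in the sources used here. The deposited tables of the authors give log2 fold changes and adjusted p-values for the genes that passed their own test.

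Counts were fitted with edgeR 4.0.16 (R 4.3.3), filterByExpr, TMM scaling and the quasi-likelihood F test with Benjamini-Hochberg adjustment over all 17293 genes kept (99.9% of counts). Log2 CPM used a prior count of 2. Standard errors came from the fold change and F statistic. TPM used the union of GENCODE exons. GC content was that of the longest transcript, and its trend was removed by a lowess curve (span 0.3) per library entered as an offset. Shared sequence was the share of 50-base transcript windows found in other genes. With unknown counting settings, genes with shared windows or overlapping exons are uncertain. The edgeR fit without trend removal was tested on simulated counts. These held no GC or length trend, so that test does not cover the removals.

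Alternatives were DESeq2 size factors, upper-quartile scaling, no filter, a CPM filter, DESeq2 1.42.0, limma 3.58.1 voom, a replicate block, Xist as covariate, 1 surrogate variable (sva 3.50.0), removal of GC and length trends, and each library left out. Leaving out libraries after GC removal was added after seeing the data. The members, lists and roles were chosen with earlier results of these data known. The rule for named genes took the up to 3 members with the smallest p in each complex, its lowest member, members called lower, the genes of isoform pairs, and up to 2 genes with the smallest p of each other list. Values per library were printed for these members, except that some genes of isoform pairs, and some genes of the other lists, were given by fold change or mean level only. Genes named outside that rule were chosen after their values were seen. Of the CA1 marker list 1 gene is not reported here.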

Additional observations from a re-analysis of the deposited data

Results flagged for a closer look

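For 3 members there was a control library far from the other controls, among 92 groups of values checked, and chance flags about 1 in 20 such groups. All of them were in control 2. Cyc1 was at 159.6 CPM there against 136 to 142 CPM in the other controls. Cox6a1 was at 226 CPM against 194 to 202 CPM. Atp5s was at 17.4 CPM against 18.9 to 19.3 CPM. In each case control 2 lay toward the transgenic libraries, and it also had the GC slope nearest to theirs among the controls (-0.06). Without control 2, 22 members rose and 2 fell.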

How the results depend on the processing

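The member median was positive under every alternative run (DESeq2 or upper-quartile size factors, no filter, a CPM filter, DESeq2, voom, the replicate block, Xist or 1 surrogate variable as covariate, GC and length removal, each library left out). It was 0.11 with GC and length trends removed, where 11 members rose, and 0.15 to 0.20 with 1 library left out. The count of members that fell was 1 without the filter and 0 with the GC trend or both trends removed. The complex II count was 1 without the filter, with the GC trend removed or with the length trend removed, and 0 with both removed (median 0.0464). The complex IV count was 3, 4 and 2 under GC, length and both removals. In complex V 10 rose with voom, 0 fell without the filter or with GC or both trends removed, and the median was 0.0738 with the length trend and 0.0605 with both removed. Over all genes 662 rose without the filter, 2164 with voom, 2053 with the replicate block, 200 with GC or both trends removed, and 142 and 94 fell under those removals. The replicate block gave 24 members that rose and 2 that fell. The labels link same-numbered libraries by the number only. The deviations of the 5 pairs correlated at -0.19 to 0.20, and not every library correlated best with its own number. Such correlations cannot tell whether a pair shared a litter or batch.

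Among the 46 members, signs turned for 4 with the GC trend removed (Atp5a1 -0.0212, Atp5f1 0.48, Atp5g1 0.0506, Atp5s 0.0875), for 2 with the length trend removed (Uqcrb -0.0195, Atp5h -0.0088), for 7 with both removed (Cyc1 -0.0034, Atp5a1 -0.039, Atp5f1 0.47, Atp5g1 0.0479, Atp5k -0.0418, Atp5mpl -0.0054, Atp5s 0.0553) and for Atp5g1 with upper-quartile scaling (0.0052). With 1 library left out Atp5g1 ran from -0.0431 to 0.0136, 10 to 22 members rose and 0 to 2 fell (0 to 15 and 0 to 1 after GC removal), 0 to 2 rose in complex II, 3 to 6 in III and 3 to 8 in IV, and 0 to 1 fell in V. Over all genes 361 to 2132 rose and 794 to 2580 fell (0 to 539 and 0 to 401 after GC removal). The ratio of Atp5g2 to Atp5g3 differed by -0.38 to -0.28. The cause of these shifts was not tested. Control 5, the shallowest library, moved the member count most. At a few CPM Atp5l, Atp5g2 and the alternative forms of complex IV have wide errors (SE up to 0.27).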
